A study of Homo sapiens with 16 samples.

Results

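The response of kidney organoids to tumor necrosis factor alpha (TNFα) was compared between 48 h and 24 h of treatment. For each gene the response at a time was the level in the TNF library minus that in the vehicle control (VC) library of the same time, and the difference of responses was the 48 h response minus the 24 h response. The organoids were grown from UM77-2, a human embryonic stem cell line, and RNA came from spheroids isolated from the cultures. The 4 groups were VC 24h, TNF 24h, VC 48h and TNF 48h, each with 1 library, out of 16 samples in the series. The TNF groups received TNFα at 5 ng/ml and the VC groups the vehicle alone. By the sample labels, treatment of these spheroids began on day 23 of culture, was renewed on day 24 for the 48 h wells, and ended with collection of all 4 groups on day 25, whereas the methods place the start 24 or 48 h before collection and renew the medium every 24 h. Which of these holds for the 24 h wells cannot be told from the sources used here. Organoids of this kind hold podocyte-like, tubular, stromal and off-target neural and muscle cells, and no circulating immune cells.

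All 21093 genes of the deposited table entered the comparison. The authors had filtered this table, and counts and medians over a gene list cover only the members left in it. Levels are log2(CPM + 1), where CPM is the gene's read count scaled to the library's total, and a level difference of 1 is a doubling for a well expressed gene. Whole read counts could be recovered from the values, and the libraries held 54299682, 52553823, 49948198 and 59246286 reads for VC 24h, TNF 24h, VC 48h and TNF 48h. With 1 library per group there was no replicate check and no test. The 95% intervals given with differences cover counting error only, and biological spread between organoid cultures is not in them. A gene is said to have risen or fallen at a time when its response reached 1 or -1. In bulk RNA, fewer cells of a type and less RNA per cell cannot be told apart.

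TNFα binds the receptors TNFRSF1A and TNFRSF1B. The first recruits TRADD, TRAF2, RIPK1 and ubiquitin ligases such as BIRC3, which activate the IκB kinase complex, release NF-κB from its IκB inhibitors and start transcription of chemokines, adhesion molecules and survival genes. Many of the induced genes encode brakes on the same pathway, among them IκBα (NFKBIA) and the ubiquitin-editing enzyme A20 (TNFAIP3). In the kidney the pathway is known for loss of podocyte and proximal tubule gene expression and for making tubular and stromal cells release signals that attract leukocytes.

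The promoters of 5 genes are shown because these genes stand for the 3 courses of the response described below. VCAM1 and IRF1 had a smaller response at 48 h, NFKBIA and TNFAIP3 kept most or all of theirs, and TNF itself had a larger one. Between the TNF libraries alone, the change from 24 h to 48 h was -0.41 for VCAM1, -0.54 for NFKBIA and -0.43 for TNFAIP3. The courses of these 3 genes thus differ through their VC libraries, which changed by 0.52, -0.30 and -0.44. Each line gives the 250 bases before the annotated start, 5′ to 3′ on the gene's strand, from the RefSeq promoter table of build GRCh38.p14. Capitals mark matches on either strand to the NF-κB consensus. VCAM1 lies on the plus strand at chr1:100719492-100719741, IRF1 on the minus strand at chr5:132490774-132491023, NFKBIA on the minus strand at chr14:35404750-35404999, TNFAIP3 on the plus strand at chr6:137867009-137867258 and TNF on the plus strand at chr6:31575315-31575564.
VCAM1: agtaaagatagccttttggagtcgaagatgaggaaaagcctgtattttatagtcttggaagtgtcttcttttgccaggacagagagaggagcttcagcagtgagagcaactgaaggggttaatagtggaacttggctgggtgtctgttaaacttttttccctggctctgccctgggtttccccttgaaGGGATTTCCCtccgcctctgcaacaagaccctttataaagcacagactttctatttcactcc
IRF1: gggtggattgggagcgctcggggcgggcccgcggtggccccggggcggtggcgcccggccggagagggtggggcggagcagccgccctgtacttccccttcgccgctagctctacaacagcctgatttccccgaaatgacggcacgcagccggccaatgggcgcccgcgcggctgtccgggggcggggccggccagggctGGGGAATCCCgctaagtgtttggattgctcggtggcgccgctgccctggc
NFKBIA: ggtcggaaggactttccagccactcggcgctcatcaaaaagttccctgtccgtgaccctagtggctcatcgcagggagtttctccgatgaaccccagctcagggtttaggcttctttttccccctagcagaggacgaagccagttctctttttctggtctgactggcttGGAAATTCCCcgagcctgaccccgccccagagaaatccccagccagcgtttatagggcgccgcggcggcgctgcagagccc
TNFAIP3: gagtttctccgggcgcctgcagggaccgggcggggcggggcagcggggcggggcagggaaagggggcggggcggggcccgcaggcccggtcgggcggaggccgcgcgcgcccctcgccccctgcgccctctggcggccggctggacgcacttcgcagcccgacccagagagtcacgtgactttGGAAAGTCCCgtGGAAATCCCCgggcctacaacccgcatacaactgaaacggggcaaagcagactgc
TNF: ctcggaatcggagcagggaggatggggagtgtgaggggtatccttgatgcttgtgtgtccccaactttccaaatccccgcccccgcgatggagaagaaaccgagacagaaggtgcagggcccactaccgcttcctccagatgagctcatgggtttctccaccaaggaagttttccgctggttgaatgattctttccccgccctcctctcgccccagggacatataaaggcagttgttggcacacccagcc
VCAM1 held 1 match, which began 62 bases before the start, IRF1 1 match at 50 bases and NFKBIA 1 match at 81 bases. TNFAIP3 held 2 matches, at 67 and 55 bases, and the TNF window held none. Matches were present in 17.4% of the 13667 promoters (250 bases before to 50 after the start) that could be paired by symbol with genes of the table. A match is a stretch of letters and was not shown here to bind a factor. Shares were not compared between fading, held and growing genes, because fewer than 80% of the members of most of these classes had a promoter in the table (74.1% of the fading and 72.4% of the held genes that rose).

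Most genes that responded at one time responded in the same direction at the other. At 24 h, 270 genes rose (1.28% of all genes) and 154 fell (0.73%). At 48 h, 225 rose (1.07%) and 159 fell (0.754%). A rise at both times was seen for 184 genes, at 24 h alone for 86 and at 48 h alone for 41. A fall at both times was seen for 107 genes, at 24 h alone for 47 and at 48 h alone for 52. No gene rose at one time and fell at the other. Across all genes the responses at the 2 times, which share no library, had a Pearson r of 0.82 and a Spearman rho of 0.59, as a description over genes that are not independent replicates. The median response over all genes was -0.04 at 24 h and -0.01 at 48 h, and the median difference of responses was 0.02.

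**Figure D1:**
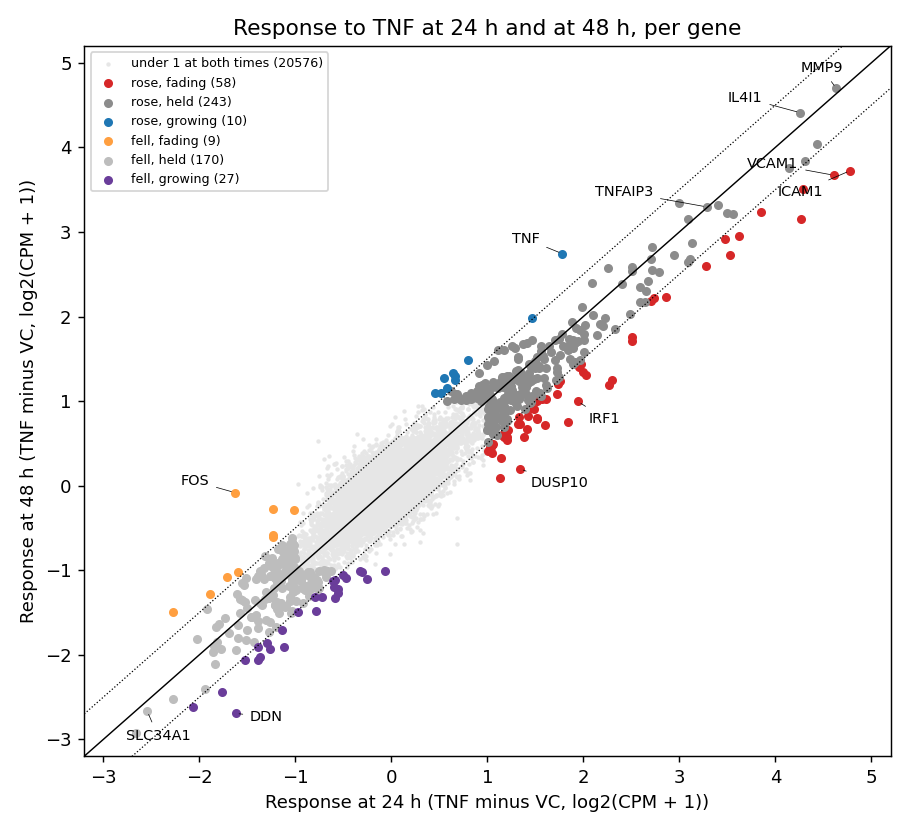
Response to TNF at 48 h (vertical axis) against that at 24 h (horizontal axis), both TNF minus VC in log2(CPM + 1), with 1 point per gene. The solid line marks equal responses and the dotted lines a difference of 0.5 either way. Most genes that rose or fell (dark and light grey) lie between the dotted lines, while ICAM1, VCAM1, IRF1 and DUSP10 lie below them, and TNF lies above.

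The 311 genes that rose at either time were sorted by the difference of responses. Fading genes, with a difference of -0.5 or less, numbered 58 (18.6%), held genes 243 (78.1%) and growing genes, with a difference of 0.5 or more, 10 (3.22%). Over all genes, 1.19% had a difference of -0.5 or less and 1.29% one of 0.5 or more. The median difference was -0.20 among the genes that rose, and 222 of the 311 had a smaller response at 48 h. The choice of genes bears on this value: the median was -0.24 for genes chosen by a rise at 24 h and -0.10 for those chosen by a rise at 48 h. When genes were chosen by the mean of both responses, the 227 genes with a mean of at least 1 had a median difference of -0.19, and the 19 with a mean of at least 3 had one of -0.39, or 90.2% of the 24 h response on the log2 scale in the median.

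The 206 genes that fell at either time showed no such lean to smaller responses. Fading, that is a response nearer to 0 at 48 h by 0.5 or more, was seen for 9 of them (4.37%), holding for 170 (82.5%) and growing, that is a deeper fall, for 27 (13.1%). These counts depend on the pseudocount: with 0.25 CPM in place of 1 they were 61, 306 and 71. The counts of fading and growing genes that rose were then 109 and 45. With the pseudocount of 1 CPM, the median difference of the genes that fell was -0.07. It was 0.06 for genes chosen by a fall at 24 h and -0.21 for those chosen by a fall at 48 h, so its sign followed the choice.

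The controls of the 2 times were not alike, and every difference of responses contains their difference. VC 48h exceeded VC 24h by at least 1 for 32 genes (0.152%) and was under it by at least 1 for 12 (0.0569%), 44 in all, or 0.209% of genes. For comparison, the 2 organoid replicates of another bulk set of the series differed by at least 1 for 16, 8 and 63 of 20488 shared genes on days 21, 25 and 29. Among the 58 fading genes the TNF level was lower at 48 h than at 24 h for 49, while for 21 the controls carried the larger share of the difference. The median change from 24 h to 48 h in the fading genes was -0.45 between the TNF libraries and 0.18 between the VC libraries. When the mean of both VC libraries served as the control of both times, 26 of the 58 fading genes still had a difference of -0.5 or less, as did 18 of the 27 deepening falls. Of the 10 growing genes that rose 4 still passed 0.5 under that control, and of the 9 fading falls 3 did. Under the same control VCAM1 had a difference of -0.41 and so held, whereas NFKBIA had one of -0.54 and so faded.

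**Figure D2:**
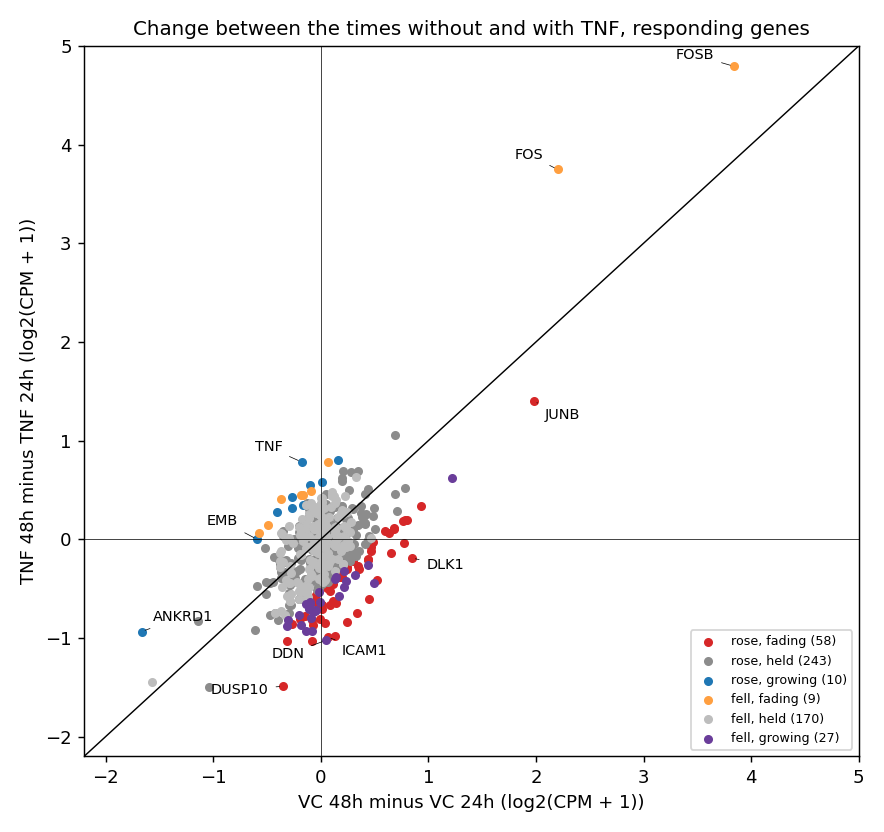
Change of each responding gene from 24 h to 48 h in the VC libraries (horizontal axis) and in the TNF libraries (vertical axis), in log2(CPM + 1). Genes on the diagonal moved alike without and with TNF. ICAM1 and DDN moved mainly down the vertical axis, by -0.99 and -1.03, whereas FOS, FOSB and JUNB moved far along both axes and ANKRD1 lay at -1.67 on the horizontal axis.

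The adhesion molecules that leukocytes bind were the most strongly induced fading genes. ICAM1 (GRCh38 chr19:10271093-10286615, plus strand), which binds leukocyte integrins, was at 2.85 in VC 24h, 7.63 in TNF 24h, 2.91 in VC 48h and 6.63 in TNF 48h. Its response went from 4.78 to 3.72, a difference of -1.05 (95% interval -1.25 to -0.86), and the controls differed by 0.06. VCAM1, whose partner is the integrin VLA-4, was at 4.34, 8.95, 4.87 and 8.54 in the same order of libraries. The VCAM1 response went from 4.61 to 3.67, and the controls, 0.52 apart, carried the larger share of the difference of -0.94 (-1.05 to -0.82). Both genes were far above their controls at 48 h. JAM2, a junction protein, held at 1.32 and 1.37. The list of 15 leukocyte adhesion genes as a whole had a median difference of -0.12 with 4 members at -0.5 or less. Besides ICAM1 and VCAM1 these were CDH5 and PECAM1, named after their values were seen, which had negative responses that deepened. CDH5 went from -0.30 to -1.02 and PECAM1 from -0.28 to -0.85.

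Of 23 listed genes of the receptors and their signalling complex 1 rose, the ubiquitin ligase BIRC3, which was chosen for mention after its values were seen. BIRC3 was at 0.98, 4.82, 1.32 and 4.56, and its response went from 3.85 to 3.24 (difference -0.61). TNFRSF1A was at 6.47, 6.54, 6.69 and 6.56 and also was not picked by rule. The median response of the 23 was 0.10 at 24 h and 0.05 at 48 h. Short of the limit were CYLD, a deubiquitinase, with responses of 0.84 and 0.78, TRAF2 with 0.76 and 0.54 and TRAF1 with 0.47 and 0.41, which were also named after their values were seen. TAB2, a ubiquitin-binding adaptor, had responses of -0.22 and -0.18, and RBCK1, a subunit of the linear ubiquitin ligase, of -0.03 and -0.13.

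The NF-κB subunits and their partner BCL3, 6 genes in all, each had a smaller response at 48 h. A negative difference was seen for 45.7% of all genes and for 71.4% of all genes that rose. Their median was 1.72 at 24 h and 1.16 at 48 h. RELB, the transcription partner of the alternative pathway, was at 3.78, 6.87, 3.78 and 6.42, with responses of 3.09 and 2.64. NFKB2, its precursor partner, was at 5.17, 7.66, 5.18 and 7.21, with responses of 2.49 and 2.03. Their controls were level between the times, so that the differences of -0.45 and -0.46 lay in the TNF libraries. BCL3, a nuclear IκB protein that works with NF-κB dimers, went from 2.51 to 1.71, but its VC level was 0.65 higher at 48 h.

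Among the 13 inhibitors and feedback genes of NF-κB, 8 rose at either time, 7 of which held and 1 of which faded. This split lies near that of all genes that rose, of which 78.1% held. Over all genes, 1.28% rose at 24 h and 1.07% at 48 h. TNFAIP3 was at 3.97, 7.26, 3.53 and 6.82, so that its response was 3.29 at 24 h and 3.30 at 48 h (difference 0.01, -0.14 to 0.16). NFKBIA was at 5.95, 8.54, 5.65 and 8.0, with responses of 2.59 and 2.35 (difference -0.25, -0.33 to -0.17). NFKBIE, another IκB, went from 2.21 to 1.89. In all 3 the VC library was lower at 48 h too, by 0.44, 0.30 and 0.43, and their TNF levels were lower at 48 h by 0.43, 0.54 and 0.75. IER3, an anti-apoptotic early gene, held at 1.17 and 1.16, as did TNIP1, a partner of A20, at 1.22 and 1.07, and ZC3H12A, an RNase that degrades cytokine transcripts, at 1.76 and 1.54. NFKBID was the fading member, at 2.78, 4.30, 2.47 and 3.27, with responses of 1.52 and 0.80.

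**Figure D3:**
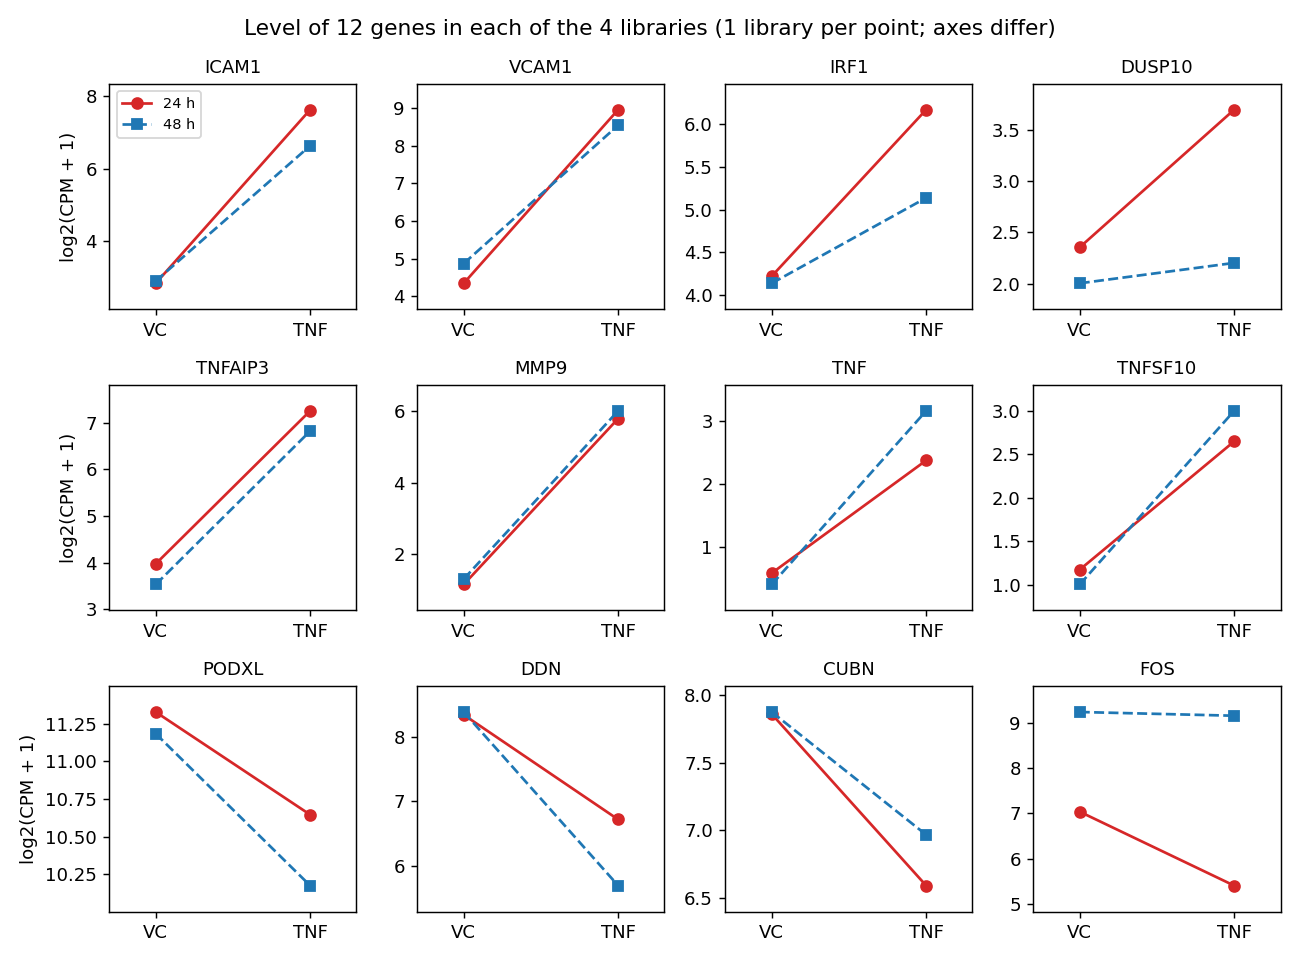
Level in log2(CPM + 1) of 12 genes in VC and TNF libraries at 24 h (red circles, solid) and 48 h (blue squares, dashed), 1 library per point and a separate axis per gene. Lines of equal slope mean equal responses: TNFAIP3 has parallel lines, ICAM1, IRF1 and DUSP10 a flatter line at 48 h, TNF and TNFSF10 a steeper one, and PODXL and DDN a steeper descent.

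Chemokines are secreted proteins that attract leukocytes, and most of those in the table rose. Of 20 listed members 13 were in the table, of which 9 rose at 24 h and 8 at 48 h. Of these 7 held and 2 faded, a split near that of all genes that rose (78.1% held), and the median response went from 1.73 to 1.34. CCL2, which attracts monocytes, was at 3.32, 7.62, 3.39 and 7.23, with responses of 4.31 and 3.84 (difference -0.47, -0.64 to -0.30). CXCL1, a neutrophil attractant, was at 1.71, 5.86, 1.86 and 5.62, and its response went from 4.15 to 3.76. CXCL10, which attracts T cells, was at 0.19, 3.66, 0.30 and 3.21 and was 1 of the 2 that faded (3.48 to 2.92). With 7 reads in VC 24h and 11 in VC 48h, the pseudocount of 1 CPM bears on both of its responses. The TNF libraries differed by -0.45 for CXCL10, so it held when the mean of both VC libraries was the control. CXCL6, another neutrophil attractant, was at 0.28, 3.37, 0.37 and 3.52, with responses of 3.09 and 3.16. It had only 11 reads in VC 24h and 14 in VC 48h, so the pseudocount of 1 CPM bears on both responses. Whether its course differs from that of CCL2 and CXCL1 cannot be told. CXCL14 went from 1.89 to 1.63 and CXCL16 from 1.73 to 1.34. The CXCL family holds close copies, and reads may be assigned among them uncertainly. CXCL8, CXCL9, CXCL11, CCL5, CCL7, CCL8 and CCL11 were not in the table, and their responses cannot be given.

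TNF itself had the most positive difference of responses among the protein coding genes that rose and reached 5 CPM in 1 library. It was at 0.59 in VC 24h, 2.37 in TNF 24h, 0.41 in VC 48h and 3.15 in TNF 48h, from 27, 219, 16 and 468 reads. Its response was 1.78 at 24 h and 2.74 at 48 h, a difference of 0.96 (0.65 to 1.28), of which 0.78 lay between the TNF libraries. The RNA counted is that of the cells, since the added TNFα is protein. TNFSF10 (TRAIL), a ligand of death receptors, also grew, at 1.18, 2.65, 1.01 and 3.0, with responses of 1.47 and 1.99. Other members of the 16 cytokines and growth factors held: IL32, a cytokine of epithelial and immune cells, was at 3.07, 7.50, 3.25 and 7.29 with responses of 4.44 and 4.04, and IL34, a ligand of the macrophage receptor CSF1R, was at 2.15, 5.55, 2.04 and 5.36 with 3.40 and 3.32. CSF1, the other ligand of that receptor, was at 4.71, 6.72, 5.16 and 6.74. Its response went from 2.01 to 1.58 although the TNF libraries differed by 0.03. LTB, a lymphotoxin subunit, faded from 2.86 to 2.23. Over the 16 of 23 listed genes that were in the table the median response was 1.08 at 24 h and 1.03 at 48 h. IL6, IL1A and IL1B were among those not in the table.

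The remaining growing genes were of other kinds. SST, the hormone somatostatin, was at 4.15, 4.80, 4.31 and 5.60 with responses of 0.66 and 1.3, and SLC18A3, the vesicular acetylcholine transporter, was at 3.29, 3.93, 3.02 and 4.35 with 0.64 and 1.33. NPTX1, a neuronal pentraxin, went from 0.91 to 1.33, short of the limit for growing. In ANKRD1 and EMB the controls moved most: ANKRD1 was at 3.24, 3.78, 1.57 and 2.85 and EMB at 2.06, 2.72, 1.47 and 2.72, so that ANKRD1 was lower and EMB level between the TNF libraries. S100A14, an epithelial calcium-binding protein, was at 4.32, 5.49, 3.97 and 5.57 and was likewise short of it.

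The acute phase and related genes that rose included some with a much smaller response at 48 h and some that held. Of 18 listed acute phase and related genes 7 were in the table. Of these 4 rose, 2 of which faded and 2 of which held. Among all genes that rose, 18.6% faded and 78.1% held. The median response of the 7 was 1.41 at 24 h and 0.67 at 48 h. CHI3L1, a chitinase-like protein, was at 3.0, 4.60, 3.04 and 3.75 (responses 1.60 and 0.71), and the pentraxin PTX3 was at 2.76, 4.17, 2.88 and 3.55 (1.41 and 0.67). IL4I1, a secreted amino acid oxidase, was at 1.69, 5.95, 1.88 and 6.30, with responses of 4.26 and 4.41. MMP9, MMP7 and FDCSP were not members of this list. MMP9, a gelatinase, was at 1.15, 5.79, 1.31 and 6.0, with responses of 4.63 and 4.70, the largest mean response among the named held genes. MMP7, a matrilysin of injured tubules, held at 1.79 and 1.65. FDCSP, a small secreted peptide, was at 0.21, 4.48, 0.35 and 3.50, and its response went from 4.27 to 3.15 (difference -1.12, -1.36 to -0.87). TNFAIP2, the other held member of the list besides IL4I1, went from 2.64 to 2.18.

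Complement component C3, the protein on which all activation routes meet, was at 2.32, 5.85, 2.25 and 4.98. Its response went from 3.52 to 2.73 (difference -0.79, -1.03 to -0.55), with controls 0.07 apart. C1S, a protease of the classical route, went from 1.33 to 1.03. These 2 were the complement genes that rose among 16 listed, and the median response of the list was 0.03 and 0.05. Over all genes, 1.28% rose at 24 h and 1.07% at 48 h.

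MHC class I genes, which present peptides to T cells, held with a small loss in nearly every member. Of 16 listed, 7 rose at either time, 6 held and 1 faded, and 15 had a smaller response at 48 h. Among all genes that rose, 78.1% held. The median was 0.85 at 24 h and 0.77 at 48 h. A negative difference was seen for 45.7% of all genes and for 71.4% of all genes that rose. HLA-B was at 3.94, 6.88, 3.96 and 6.69 (responses 2.94 and 2.73) and the shared light chain B2M at 6.70, 7.90, 6.69 and 7.71 (1.21 and 1.02). HLA genes are near copies of each other and their reads may be split uncertainly. The peptide transporter TAP1 went from 2.65 to 2.31, the loading chaperone TAPBP from 1.38 to 1.12, the immunoproteasome subunit PSMB8 from 1.49 to 1.27, and the trimming enzyme ERAP2 faded from 1.74 to 1.20.

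Genes known as interferon targets divided. IRF1, a transcription factor that NF-κB induces, was at 4.22, 6.17, 4.14 and 5.14, and its response went from 1.94 to 1.0 (difference -0.95, -1.09 to -0.80). OAS3 at 1.43 and 1.44, IFIH1 at 1.0 and 1.06, PARP14 at 0.94 and 1.0 and GBP3 at 1.58 and 1.53 held, and these are RNA sensors, a PARP enzyme and a guanylate-binding protein of the antiviral response. GBP4 went from 2.14 to 1.78. The 36 listed members had a median response of 0.28 at both times and a median difference of -0.01, with 19 negative and 17 positive.

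Of 20 genes of cell death and survival 4 rose, of which 3 held and 1 faded, against 78.1% held among all genes that rose. PMAIP1 (1.43 and 1.33), BBC3 (1.34 and 1.09) and the death receptor FAS (1.19 and 1.02) are known to promote apoptosis. TNFRSF9, a costimulatory receptor, was at 0.63, 4.25, 0.63 and 3.58 and faded from 3.63 to 2.95. GADD45A, a DNA damage and stress gene, was at 8.52, 7.55, 8.5 and 7.01, so its fall deepened from -0.97 to -1.50.

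DUSP10, a phosphatase of the p38 and JNK kinases, had the most negative difference among the protein coding genes that rose and reached 5 CPM. It was at 2.35, 3.69, 2.00 and 2.20, with responses of 1.34 and 0.20, a difference of -1.14 (-1.44 to -0.85). OXTR, the oxytocin receptor, went from 2.27 to 1.19 and LCP1, an actin-bundling protein, from 2.30 to 1.25. DLK1, a Notch ligand homolog, was at 3.47, 4.60, 4.32 and 4.41, so that the TNF libraries differed by -0.19 and the controls by 0.85. The matrix gene HMCN2 held at 2.72 and 2.82, and the collagen gene COL22A1 at 2.7 and 2.68.

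Genes of sterol synthesis and uptake, which the factor SREBP2 controls, had small positive responses at 24 h and responses near 0 at 48 h. The median over 18 genes was 0.27 at 24 h and -0.01 at 48 h, and 17 of 18 had a negative difference. This compares with 45.7% of all genes and 71.4% of all genes that rose. Named after its values were seen was MVD, an enzyme of the mevalonate pathway, at 5.77, 6.33, 5.98 and 6.0 (0.56 and 0.02). HMGCS1, the entry enzyme, had responses of 0.01 and -0.02, and SREBF2 of 0.13 and 0.03.

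**Figure D4:**
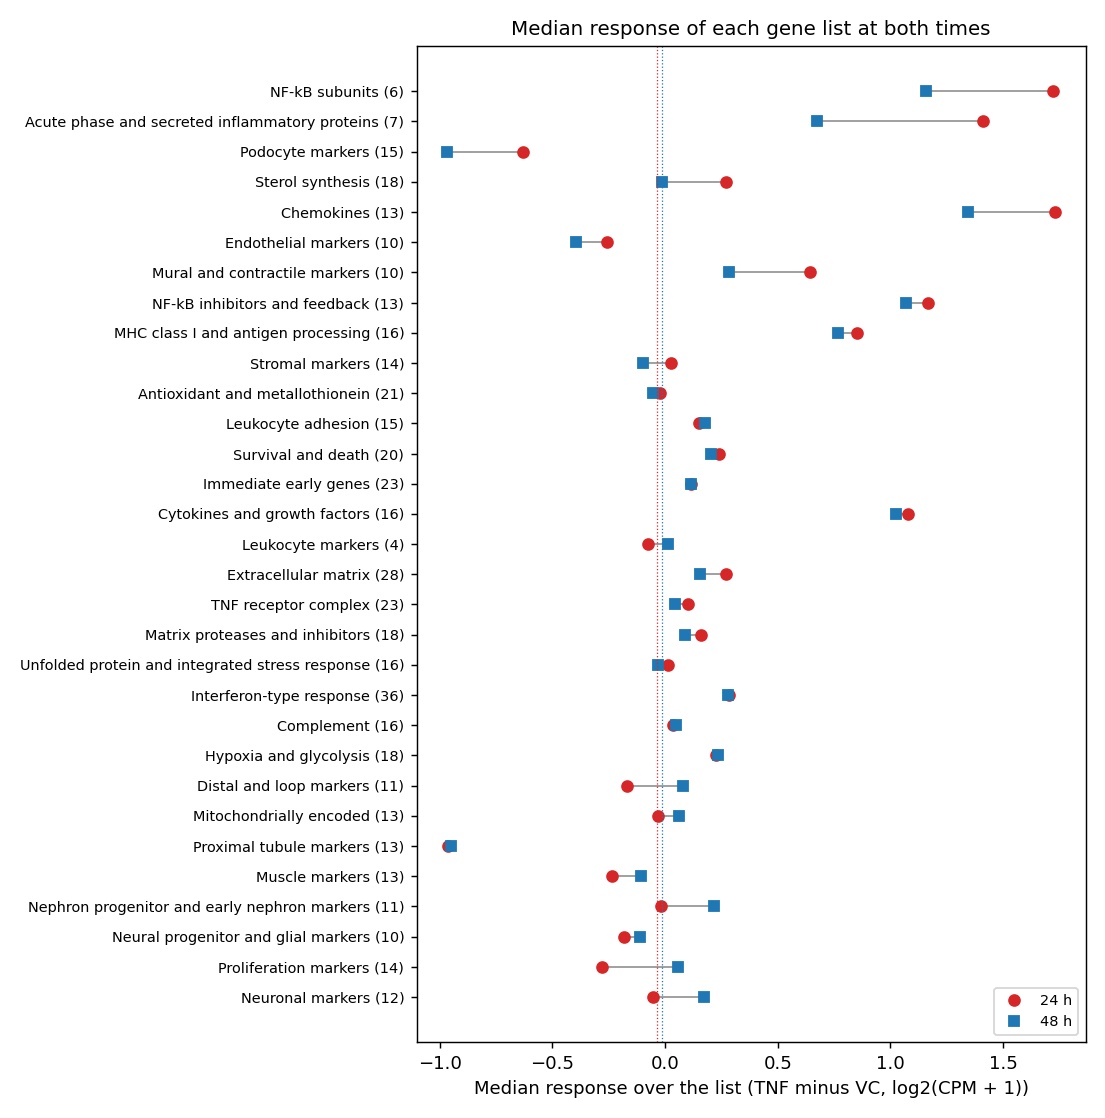
Median response over each of 31 gene lists at 24 h (red circles) and 48 h (blue squares), in log2(CPM + 1), with the number of listed members in parentheses and the medians of all genes as dotted lines. Lists are ordered by median difference, from NF-κB subunits at -0.40 at the top to neuronal markers at 0.33 at the bottom.

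Most podocyte markers were lower with TNF at 24 h and lower still at 48 h. Podocytes are the filtering cells of the glomerulus, and their markers here were among the well expressed genes of the organoids. Of 15 listed markers 2 fell at 24 h and 6 at 48 h, 14 had a more negative response at 48 h, and the median went from -0.63 to -0.97. A more negative response at 48 h was seen for 45.7% of all genes and for 55.8% of all genes that fell. Over all genes, 0.73% fell at 24 h and 0.754% at 48 h. DDN, the podocyte and neuronal protein dendrin, was at 8.34, 6.72, 8.38 and 5.69, with responses of -1.62 and -2.69 (difference -1.07, -1.14 to -1.0). The controls of DDN differed by 0.04, so the further loss was in the TNF libraries.

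Most other podocyte markers moved the same way by less. PODXL, the main sialomucin of the podocyte surface, was at 11.33, 10.64, 11.18 and 10.17 (responses -0.68 and -1.01). CLIC5 went from -0.77 to -1.14, PLA2R1, a target of autoantibodies in membranous nephropathy, from -0.63 to -1.01 and the transcription factor TCF21 from -0.99 to -1.23. Markers named after their values were seen were NPHS1, which encodes nephrin, with -0.67 and -0.97, and WT1 with -0.48 and -0.62. Some members had responses near 0 at both times, among them ACTN4 with -0.06 and -0.13, CD2AP with -0.09 and 0.02 and TRPC6 with -0.04 and -0.11. KIRREL1 was slightly higher with TNF at 24 h, with responses of 0.15 and -0.02. These members were also named after their values were seen. The summed level of the 15 markers was 9125 CPM in VC 24h, 6038 in TNF 24h, 8553 in VC 48h and 4642 in TNF 48h.

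**Figure D5:**
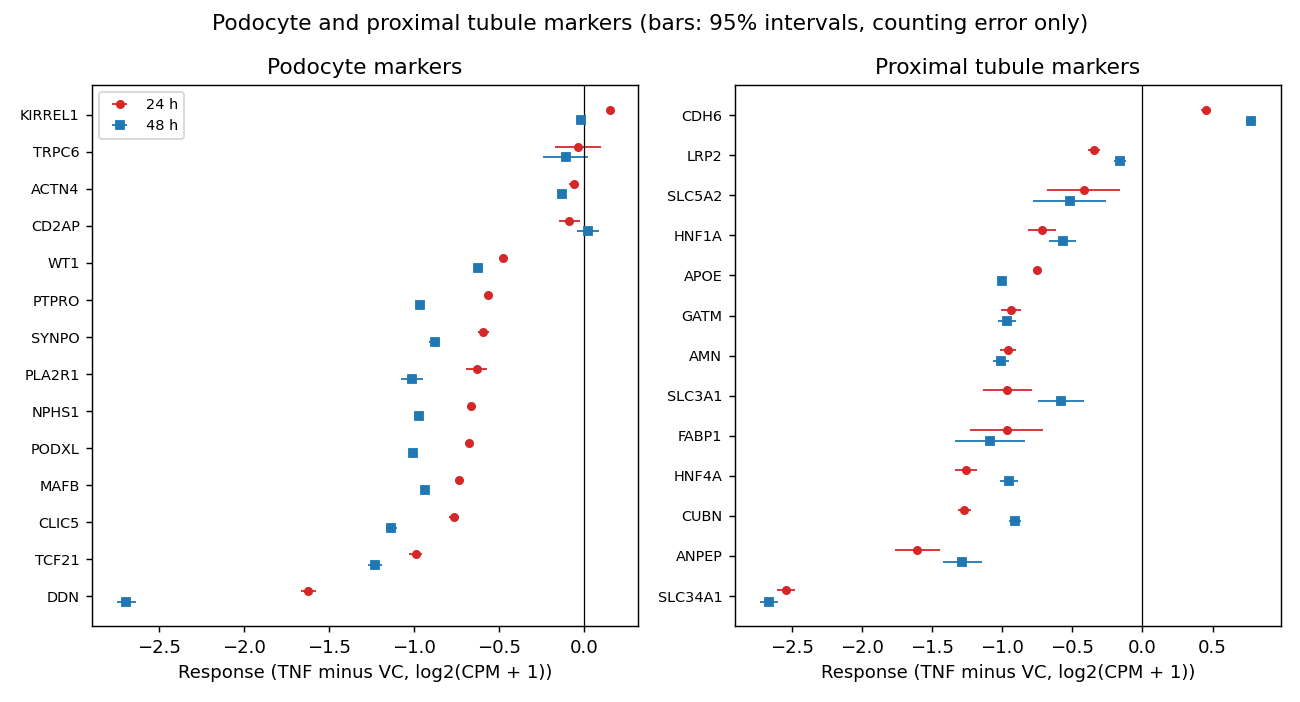
Responses (TNF minus VC, log2(CPM + 1)) of 14 of the 15 podocyte and the 13 proximal tubule markers at 24 h (red circles) and 48 h (blue squares), with 95% intervals for counting error only. In 13 of the 14 plotted podocyte markers the square lies to the left of the circle, whereas among the tubule markers 6 lie to the left and 7 to the right.

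Most proximal tubule markers were lower with TNF at both times, and their median response was alike at 24 h and 48 h. The median of 13 listed genes was -0.96 at 24 h and -0.95 at 48 h, 7 fell at either time, and all 7 held. Among all genes that fell, 82.5% held. Over all genes, 0.73% fell at 24 h and 0.754% at 48 h. SLC34A1, the sodium phosphate transporter, was at 7.89, 5.35, 7.93 and 5.26, with responses of -2.54 and -2.67. Some members regained part of the loss. CUBN, the endocytic receptor cubilin, was at 7.86, 6.59, 7.87 and 6.96, and its response went from -1.27 to -0.91 (difference 0.36, 0.30 to 0.42). HNF4A, the factor that directs the proximal tubule program, went from -1.26 to -0.95 and the brush border peptidase ANPEP from -1.61 to -1.29. AMN, the partner of cubilin, stayed at -0.96 and -1.01, and APOE went from -0.75 to -1.0. Not every listed member was clearly lower. CDH6, named after its values were seen, was higher with TNF, with responses of 0.45 and 0.77. LRP2, also named after its values were seen, had -0.34 and -0.16. Genes of the fading falls outside the list were SLC5A8, a monocarboxylate transporter, at 4.75, 2.48, 4.38 and 2.89 (responses -2.27 and -1.50) and DIO1, the deiodinase, at 2.60, 0.88, 2.11 and 1.03 (-1.72 and -1.08). CHODL, a C-type lectin, went from -1.01 to -0.29.

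The summed level of the 13 tubule markers was 1840 CPM in VC 24h, 1115 in TNF 24h, 1934 in VC 48h and 1227 in TNF 48h. Podocyte markers in total thus lost ground between TNF 24h and TNF 48h while tubule markers did not, which is a description of 2 lists in single libraries. Distal and loop markers had no member that rose or fell, with medians of -0.17 and 0.08. Markers of the early nephron had medians of -0.02 and 0.22, with JAG1, a Notch ligand, at 0.35 and 0.65 and PAX8, a nephron transcription factor, at -0.17 and 0.03.

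The 27 deepening falls among the 21093 genes included 1 of the 10 endothelial markers and 1 of the 21 antioxidant and metallothionein genes. These are single members and are not read as a result about either list. CD93, a receptor of endothelial cells, was at 2.85, 2.59, 2.77 and 1.66, with responses of -0.26 and -1.11. CDH5, the endothelial cadherin, which was named after its values were seen, was at 2.40, 2.09, 2.31 and 1.29 (-0.30 and -1.02). Of the 10 endothelial markers CDH5 alone fell, 3 had a difference of -0.5 or less, and the median went from -0.26 to -0.39. The summed endothelial level was low, from 76.6 CPM in TNF 48h to 101 CPM in VC 24h. KDR went from -0.24 to -0.78 with controls 0.52 apart, and ESAM from -0.31 to -0.19. The metallothioneins MT1G (6.54, 5.96, 6.71 and 5.38) and MT1H (4.66, 3.88, 5.10 and 3.62) had responses of -0.59 and -1.33 and of -0.78 and -1.48. They are close copies, so reads may be assigned uncertainly. MT1X, another metallothionein, which was named after its values were seen, went the other way, from -0.77 to -0.46, as did HMOX1, the heme-degrading enzyme, from -1.52 to -1.09. CA10, a carbonic anhydrase-like protein, was at 6.21, 5.09, 6.07 and 4.16.

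Of 10 mural and contractile genes 2 rose, MYH11 and RGS5. For the counts in this paragraph, 1.28% of all genes rose at 24 h and 1.07% at 48 h, while 0.73% and 0.754% fell. A lower response at 48 h than at 24 h was seen for 8 of the 10 mural and contractile genes, against 45.7% of all genes and 71.4% of all genes that rose. MYH11, the smooth muscle myosin, was at 0.92, 2.95, 0.93 and 2.24 and faded from 2.03 to 1.31. ACTA2, smooth muscle actin, which was named after its values were seen, was at 6.54, 7.49, 6.43 and 6.79 (0.95 and 0.36). RGS5, a pericyte gene, held at 1.56 and 1.65. MYL9, a myosin light chain, had negative responses of -0.29 and -0.54 and was named after its values were seen. The medians of the 10 were 0.64 and 0.28. Of 14 stromal markers 1 rose and 1 fell. COL3A1 was at 11.40, 11.72, 11.73 and 11.74 and COL1A2 at 10.93, 11.27, 11.25 and 11.45, so that the smaller responses at 48 h went with higher controls. FOXD1, a stromal progenitor factor, held with responses of -1.15 and -1.13, and PRRX1 went from 1.06 to 0.49 with controls 0.68 apart.

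Most proliferation markers were lower with TNF at 24 h and not at 48 h, although no member passed 1. The median of 14 genes went from -0.28 to 0.06, with 12 of 14 differences positive. For the counts of signs in this paragraph, 45.7% of all genes had a negative difference. TOP2A, the topoisomerase of dividing cells, was at 6.98, 6.55, 7.15 and 7.19 (responses -0.42 and 0.05, difference 0.47, 0.40 to 0.54), and HMGB2 went from -0.16 to 0.06. Some members had responses near 0 at both times: PCNA with 0.04 and 0.07, MCM5 with 0.03 and -0.03 and MCM2 with -0.01 and -0.05. These were named after their values were seen. Neuronal markers, which mark off-target cells, had medians of -0.05 and 0.17 with 11 of 12 differences positive. NEFM, a neurofilament, was at 8.71, 8.46, 8.72 and 9.0, and NEFL at 7.77, 7.51, 7.96 and 8.12. Neural progenitor and glial markers had medians of -0.18 and -0.11 and a median difference of 0.22, with 8 of 10 differences positive. The 2 members with the highest mean log2(CPM + 1), NES at -0.30 and -0.46 and MSX1 at -0.10 and -0.11, were the 2 with negative differences. The 12 neuronal markers summed to 831, 705, 897 and 1044 CPM in VC 24h, TNF 24h, VC 48h and TNF 48h, and their part in other results was not tested.

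Immediate early genes, which respond to serum and handling within minutes to hours, separated the times more than the treatments. FOS, an AP-1 subunit, was at 7.03 in VC 24h, 5.4 in TNF 24h, 9.23 in VC 48h and 9.15 in TNF 48h, and FOSB was at 3.10, 1.86, 6.94 and 6.66. Their responses went from -1.63 to -0.08 and from -1.24 to -0.28. JUNB, another AP-1 subunit, was at 6.09, 7.29, 8.07 and 8.69, so that its response went from 1.20 to 0.62 while its level was higher at 48 h with and without TNF. The median of 23 such genes was 0.85 higher in VC 48h than in VC 24h and 0.63 higher in TNF 48h than in TNF 24h. MYC went from 0.88 to 1.06. Muscle markers shared this pattern, at a median of 0.80 and 0.82 higher in the 48 h libraries, for example ACTC1 at 3.67, 3.61, 4.87 and 4.66 and TNNT1 at 4.57, 4.13, 4.96 and 4.98.

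Other lists had medians that lay close together at the 2 times. Glycolysis and hypoxia genes had medians of 0.23 at both times, with ENO1 at 0.37 and 0.26 and GAPDH at 0.13 and 0.04. Unfolded protein response genes had medians of 0.01 and -0.03, with the chaperones HSPA5 at -0.11 and -0.17 and HSP90B1 at -0.02 and -0.02. Mitochondrially encoded genes, a sign of RNA and cell quality, summed to 24548, 23394, 22216 and 23200 CPM, with MT-CO1 at -0.13 and 0.01 and MT-ND4 at -0.03 and 0.06. Of 12 leukocyte markers 4 were in the table. CD14 and FCER1G were under 1 in every library, and AIF1 was at 3.81, 3.40, 3.69 and 2.79, with responses of -0.41 and -0.90. KRT18 and KRT19, keratins of the distal nephron, had responses of 0.59 and 0.38 and of 0.39 and 0.28.

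The 24 h response had a second readout in single-cell libraries of other organoids, made from whole wells collected on day 24 after 24 h with TNFα at 5 ng/ml or vehicle. No 48 h library of that kind was used here. UMIs were summed over 11906 VC barcodes and 23160 TNF barcodes with over 500 detected genes, with medians of 6358.5 and 2599 UMIs, and 74 of these barcodes occurred in both libraries. Doublets were not removed, since the UMIs were summed over all barcodes kept. Of the 308 genes that rose in bulk and were in the single-cell table, 291 had a positive single-cell response, against 38.4% of all genes. Of the 204 that fell, 189 had a negative one, with a median of -0.46. The median single-cell response over all genes was -0.05, so negative responses were common among all genes. Across 18976 shared genes the single-cell response had a Pearson r of 0.63 with the bulk response at 24 h and 0.53 with that at 48 h, again as a description over genes. ICAM1 had a single-cell response of 4.17, VCAM1 of 3.49, TNFAIP3 of 3.03 and CCL2 of 5.28. Other genes that rose in bulk had negative single-cell responses, 17 of 308 in all, among them MMP7 at -0.49, NPTX1 at -0.31 and DLK1 at -0.17. The 10 growing genes had a median single-cell response of 0.19, against 0.97 for all genes that rose. Growing genes were chosen for a smaller response at 24 h than at 48 h, and the bulk medians at 24 h were 0.65 and 1.33. Of the podocyte genes, DDN had -0.50 and PODXL -0.01. SLC34A1 had -1.74 and CUBN -0.56. FOS, at -1.63 in bulk, had 0.51 in the single cells.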

How the data were processed

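RNA of the 4 spheroid groups was sequenced as bulk libraries. Per the labels and the methods, the authors aligned reads to GRCh38 with STAR 2.7.8a, counted them per gene with HTSeq and normalized them with voom of limma. The deposited values are log2(CPM + 1), with CPM computed by the authors after adding 0.5 reads to each count. Whole reads were recovered from them for 100% of values within a tolerance of 0.01, and library totals ran from 49948198 to 59246286 reads. Counts of UMIs in the deposited single-cell matrices came from Cell Ranger, 6.0.1 by the matrix header. Barcodes with over 500 genes were summed per library.

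Responses, their difference and counting intervals (95%) were computed in Python 3.11.15. The steps were tested on simulated data. With 1 library per group no test was made. The alternatives were a pseudocount of 0.25 CPM, edgeR 4.0.16 TMM and DESeq2 1.42.0 size factors (R 4.3.3), median centring, a filter at a mean of 1 CPM, the mean of both VC libraries as control, and other limits. Named genes were protein coding genes of at least 5 CPM in 1 library: the 8 most negative and 8 most positive differences among genes that rose, the 8 held genes with the largest mean response and a difference under 0.25, the 5 most negative and 5 most positive among genes that fell, and in each of 31 lists the members that rose or fell, or else the 2 with the highest mean level. BIRC3, TNFRSF1A, CYLD, TRAF1, TRAF2, MYL9, MT1X, MVD, NPHS1, WT1, ACTN4, CD2AP, CDH5, ACTA2, CD14 and FCER1G were named outside this rule, after their values were seen. So were CDH6, LRP2, PECAM1, KIRREL1, TRPC6, PCNA, MCM2 and MCM5. Some genes that the rule picks are not reported here. Members and lists were chosen with earlier results of these data known. Genes were named and placed with GENCODE 44, which matched 21047 of 21093 identifiers. The strand setting of the counting was not stated, and 38 of the 120 named genes overlap another gene of the table, so their reads cannot be told apart from it. Fold changes on this scale understate the change of genes near 0. The other bulk tables served only as a comparison between replicates or were not used, and the authors' own comparisons were not used.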

Additional observations from a re-analysis of the deposited data

Results flagged for a closer look

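NEFM, a neurofilament gene of neurons, had responses of opposite sign at the 2 times. Its level was 8.71 in VC 24h and 8.46 in TNF 24h, a response of -0.25, and 8.72 in VC 48h and 9.0 in TNF 48h, a response of 0.28. The difference of responses was 0.53, and with 1 library per group the difference was not tested.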

How the results depend on the processing

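No paired analysis was possible because each group has 1 library, and leaving out a library was not possible for the same reason. With a pseudocount of 0.25 CPM, 307 genes fell at 24 h, 344 rose and 303 fell at 48 h, the genes that rose held 109 fading and 45 growing members, and those that fell 61 fading, 306 held and 71 growing. With the mean of both VC libraries as control, 26 genes that rose grew. With a class limit of 1, 7 genes that rose faded and 0 grew, and 1 fall faded and 1 grew. With a limit of 1.5-fold on the response, fading, held and growing genes numbered 91, 680 and 33 among genes that rose and 59, 783 and 54 among those that fell. With genes chosen by a mean response of at least 1, an alternative added after seeing the data, 3 genes that rose grew, and 4 falls faded and 15 grew. Under TMM, DESeq2 size factors, median centring and the 1 CPM filter each of these counts was within 1.5 times its value in the report.

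With the mean VC control, the control cancels, so each difference is the change from TNF 24h to TNF 48h. That change includes any that the VC libraries shared, with medians of 0.85 for immediate early genes and 0.80 for muscle markers. Median differences under this control became 0.63 for immediate early genes, 0.098 for matrix proteases and 0.0083 for extracellular matrix. For markers they became -0.38 (podocyte), 0.36 (nephron progenitor), 0.090 (stromal), 0.55 (neuronal), 0.82 (muscle) and 0.48 (proliferation). For mitochondrially encoded genes the value was -0.094. The last was 0.075 under TMM, 0.065 under DESeq2 and 0.069 under centring, against 0.094. Leukocyte markers gave -0.49 with the 1 CPM filter, which left fewer genes. The mean VC control turned ANKRD1 to -0.94, EMB to -0.0019, JUNB to 1.40 and PRRX1 to 0.11, since it takes the change between the controls out of the difference. Of 41 named genes past 0.5, 27 stayed past it with that control and 40 or 41 under the other settings. Single libraries, a difference between the controls of the 2 times and low counts in genes near 0 limit each value.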
